A study of Mus musculus with 6 samples.

Results

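The interferon response genes followed here are 44 genes that cells switch on when interferons bind their receptors. The members were given as a list of symbols, and each was read from 1 Affymetrix probe set annotated to that gene alone, the one with the highest mean over the 6 arrays. Such a probe set was found for 42 of the 44. Isg15 had a probe set shared with another gene, and Ifi44 was not analysed here. Of the 42 genes, 40 passed a filter on dim probe sets and were tested among 13212 genes in all. The samples were tumour epithelial cells, sorted as Epcam+ alpha6+ cells from chemically induced benign papillomas of mouse skin. One group, Sox2cKO, came from K14CREER:SOX2fl/fl mice, in which tamoxifen activates a Cre recombinase under the keratin 14 promoter of basal keratinocytes. The other, control (CTRL), came from mice labelled only as controls, and both groups had been given tamoxifen for 1 week. There were 3 arrays per group. The labels give neither the age, sex or strain of the animals nor the genotype of the controls, and they do not say how many tumours went into an array. The design text counts 3 biological experiments without saying which animals they came from, so p-values measure the spread between these arrays, which may be in part technical.

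Type I interferons bind the receptor Ifnar1 and Ifnar2 and act through a complex of Stat2, Irf9 and a partner STAT, which binds a DNA element called the interferon-stimulated response element (ISRE). Interferon gamma, made mainly by T and NK cells, binds Ifngr1 and Ifngr2 and acts through STAT dimers on another element, the gamma-activated site (GAS), and through Irf1. The induced proteins block viral RNA, sense foreign nucleic acid, degrade and present peptides on MHC class I, or attack vacuoles that hold pathogens. Keratinocytes respond to both kinds of interferon.

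Promoter stretches of 8 members are shown because they hold the letters of these elements and belong to the genes on which the results turn. The sequences are from RefSeq (GRCm38.p6), and the windows searched ran from 250 bases before the gene start to 50 after it. Capitals mark every match on either strand to the ISRE letters, GAAA and GAAA with any 2 bases between them, or to the GAS letters, TTC and GAA with any 3 bases between them, in the bases before the start.
Ifit1, chr19:34640765-34640833, plus strand: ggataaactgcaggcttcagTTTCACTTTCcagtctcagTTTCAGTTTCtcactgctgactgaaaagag
Rsad2, chr12:26456543-26456592, minus strand: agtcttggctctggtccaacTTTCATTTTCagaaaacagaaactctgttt
Gbp2, chr3:142620584-142620633, plus strand: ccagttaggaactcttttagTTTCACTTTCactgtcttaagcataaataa
Gbp3, chr3:142559979-142560034, plus strand: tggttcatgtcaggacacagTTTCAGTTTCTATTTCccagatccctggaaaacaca
Igtp, chr11:58199491-58199551, plus strand: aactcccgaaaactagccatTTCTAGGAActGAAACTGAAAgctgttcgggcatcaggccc
Irgm1, chr11:48871421-48871470, minus strand: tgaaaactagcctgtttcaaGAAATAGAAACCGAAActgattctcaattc
Irf1, chr11:53769904-53769952, plus strand: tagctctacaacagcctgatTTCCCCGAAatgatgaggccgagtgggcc
Plscr1, chr9:92250084-92250132, plus strand: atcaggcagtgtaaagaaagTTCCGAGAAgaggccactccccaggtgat
Ifit1 holds 2 separate ISRE matches, and in Gbp3 and Irgm1 the 2 matches overlap. Igtp holds a GAS match next to an ISRE match, while Irf1 and Plscr1 hold a GAS match alone. The promoter table listed 32 of the 44 members. At least 1 of their windows held an ISRE match in 14 genes (43.8%) and a GAS match in 9 (28.1%), against 3.99% and 9.55% of 27025 genes in the table. A match describes letters only, not binding.

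The 6 arrays correlated at 0.966 to 0.990 over the genes tested. The targeted gene, Sox2, read 4.07, 4.63 and 3.23 on the log2 scale in Sox2cKO and 7.19, 8.31 and 8.19 in control (limma adjusted p = 0.316). The arrays also differ by sex. Xist, the RNA of the inactive X chromosome, read 6.08 to 7.54 in Sox2cKO, against 7.30, 12.03 and 11.85 in control replicates 1 to 3, and the Y-linked gene Eif2s3y read 9.52 to 9.54 in Sox2cKO, against 9.67, 3.72 and 3.45 in control. Control replicates 2 and 3 thus read as female, and the other 4 arrays as male, so sex and genotype are in part confounded here. Keratinocyte genes marked the cells on every array: Krt14 lay between 13.94 and 14.16. Unspiked bacterial control probe sets read 3.34 to 3.41, and values near that level understate differences.

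Interferon response genes varied between arrays of the same genotype. Sox2cKO replicate 2 had the highest value of all 6 arrays in 30 of the 40 members tested, where it was highest in 25.3% of all genes. Sox2cKO replicate 3 was lowest in 17 of the 40, against 19.2% of all genes. The median log2 deviation of the members from their own 6-array means was 0.56 in Sox2cKO replicate 2, near 0 in replicate 1 and -0.26 in replicate 3, against 0.11, -0.08 and -0.30 in control replicates 1 to 3. Across all genes these medians lay between -0.02 and 0.03.

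**Figure D1:**
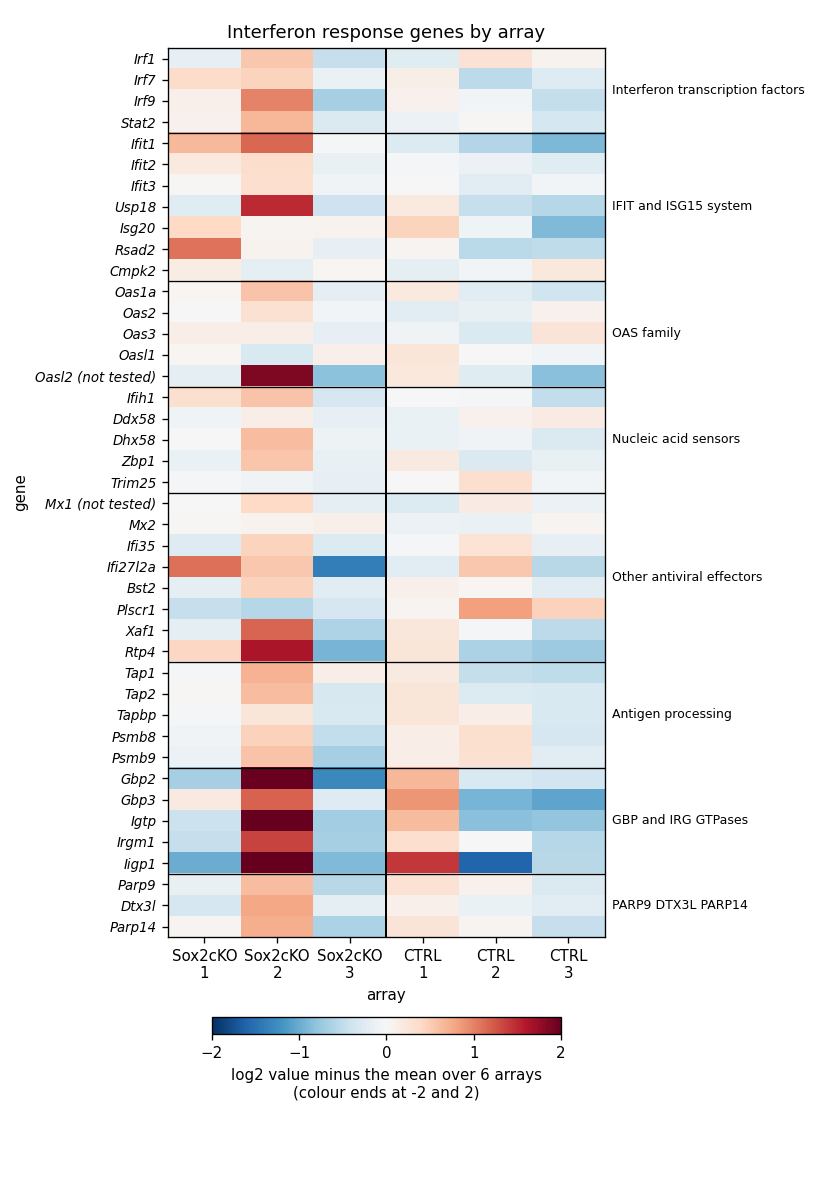
Each row is 1 of the 42 interferon response genes with a probe set, grouped by role, and each column 1 array; colour is the log2 value minus the gene's mean over the 6 arrays, cut at -2 and 2. Sox2cKO replicate 2 is highest in most rows, and control replicate 1 is the highest control in all 5 genes of the GBP and IRG group.

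No member passed the comparison of the genotypes. With limma across all genes and Benjamini-Hochberg adjustment, 0 of the 40 members had an adjusted p under 0.05 (lowest 0.999), as did 0% of all genes. Sox2, the targeted gene, did not pass either, and its limma adjusted p of 0.316 was the lowest of all genes tested. A smaller true difference in a member could thus go uncalled. At an unadjusted p under 0.05 there were 2 members, Ifit1 and Plscr1, against 2.67% of all genes, and Ifit1 entered the test only through its Sox2cKO arrays. With the replicate number as a block, 0 members passed (lowest adjusted p 0.811), and 4 were under the unadjusted level, among 656 genes in place of 353. On average 30 of the 40 read higher in Sox2cKO, where 50.6% of all genes did, with a median log2 difference of 0.18 against 0.00 for all genes. Over the 42 genes without the filter, 32 read higher, with the same median of 0.18. The median SD within groups was 0.39 for the members and 0.19 for all genes.

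Count and median depended on which arrays entered and on the sex term. Without Sox2cKO replicate 2, 18 of the 40 read higher (47.2% of all genes did) and the median was -0.05. Without Sox2cKO replicate 3 there were 35, with a median of 0.42, and without control replicate 1 there were 31, with a median of 0.31. Without control replicate 3 there were 24, with a median of 0.13. With Sox2cKO replicate 2 and control replicate 1 both left out, 23 of 40 read higher, with a median of 0.04. These 2 arrays were picked after the values were seen, as the highest in the GBP and IRG genes. Over all members the median deviation of control replicate 1 was only 0.11. With a sex covariate, which sets Sox2cKO against control replicate 1 alone, 20 of 40 read higher and the median was -0.0048. No member passed the threshold in any of these fits.

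**Figure D2:**
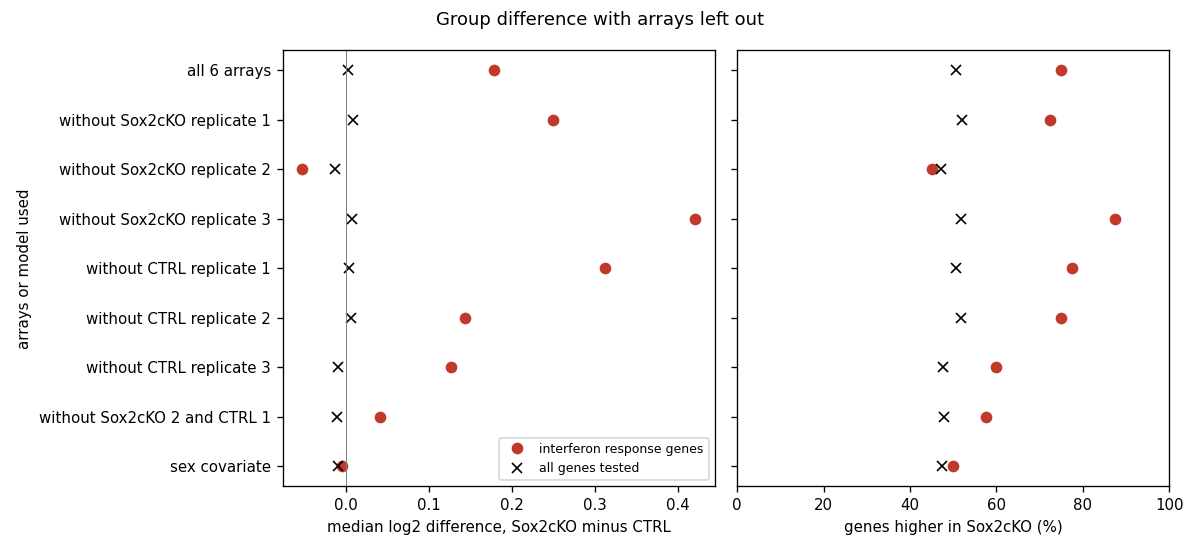
The left panel gives the median log2 difference, Sox2cKO minus control, of the interferon response genes (circles) and of all genes tested (crosses), with all 6 arrays, with arrays left out and with a sex covariate; the right panel gives the percentage of genes higher in Sox2cKO. The circles reach 0.42 without Sox2cKO replicate 3 and lie at -0.05 without Sox2cKO replicate 2, while the crosses stay near 0.

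The transcription factors that carry the signal were 4 members. Irf7, the factor that amplifies type I interferon production, read 6.41, 6.48 and 5.90 in Sox2cKO and 6.15, 5.52 and 5.79 in control. Sox2cKO replicates 1 and 2 lay above all controls, and replicate 3 lay among them (log2 difference 0.44, SE 0.22, adjusted p = 0.999). Irf9, the DNA-binding part of the Stat2 complex, read 7.27, 8.15 and 6.51 in Sox2cKO and 7.25, 7.11 and 6.70 in control. Stat2 read 5.52, 6.10 and 5.15 in Sox2cKO and 5.32, 5.46 and 5.08 in control. In both genes Sox2cKO replicate 2 was highest and the groups overlapped. Irf1, which turns on antigen processing genes after interferon gamma, read 9.62 to 10.62 in Sox2cKO and 9.84 to 10.37 in control, so the groups overlapped. All 4 factors were highest in Sox2cKO replicate 2.

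The IFIT and ISG15 system held the only member, 1 of the 40 tested, whose Sox2cKO values all exceeded the controls. About as large a share of all genes tested, 2.72%, did so. Ifit1, which binds viral RNA that lacks the host cap, read 5.68, 6.18 and 4.99 in Sox2cKO and 4.76, 4.45 and 4.13 in control. The groups did not overlap, and the means differed by 1.17 on the log2 scale. Ifit1 passed the filter through the 3 Sox2cKO arrays alone, since every control lay below the 40th percentile of its array, so its place among the filtered genes was tied to high values in Sox2cKO. In the limma fit of all 18193 genes without a filter its unadjusted p was 0.00579 and its adjusted p 0.999, and 3.07% of those genes had groups apart in this direction. An exact permutation test, two-sided, gave p = 0.1, and 3 against 3 samples cannot give less. Any gene with groups apart gives this value, so it adds nothing to the separation. The difference was 0.88 to 1.48 with single arrays left out, 0.85 with the sex covariate and 0.79 with 16 added before the logarithm, and the controls are dim enough for its size to be uncertain. Its promoter carries the pair of ISRE matches shown above. Nearby on chromosome 19, Ifit2 read 5.29, 5.44 and 4.94 in Sox2cKO and 5.06, 4.96 and 4.85 in control, with overlapping groups, and Ifit3 read 5.27 to 5.67 in Sox2cKO and 5.11 to 5.34 in control.

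Rsad2, or viperin, which makes a nucleotide that stops viral RNA synthesis, had another order of arrays. It read 7.45, 6.44 and 6.21 in Sox2cKO and 6.42, 5.83 and 5.86 in control. Sox2cKO replicate 1 was far above the rest, and the groups overlapped by 1 control array (log2 difference 0.66, SE 0.33, adjusted p = 0.999). Its 2 other probe sets, both dimmer, gave 0.78 and 0.72. Cmpk2, the nucleotide kinase gene beside it on chromosome 12, did not share the high value: it read 4.91 to 5.25 in Sox2cKO and 4.92 to 5.31 in control. Usp18, the protease that removes Isg15 from proteins and dampens the type I receptor, read 5.01, 6.76 and 4.85 in Sox2cKO and 5.46, 4.80 and 4.69 in control, so 1 array of each group stood above the others of its group. Isg20, a nuclease that degrades RNA, read 6.63 to 6.99 in Sox2cKO and 5.70 to 7.03 in control, with a single low control.

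The OAS family, several of whose members make the second messenger that activates RNase L, showed small mean differences in the members tested. Oas1a read 8.40, 8.93 and 8.16 in Sox2cKO and 8.55, 8.12 and 7.95 in control. Oas2 read 6.76, 7.07 and 6.71 in Sox2cKO and 6.55, 6.61 and 6.84 in control. Sox2cKO replicate 2 was the highest array in both, and the groups overlapped (log2 differences 0.29 and 0.18). Oasl1, a family member that represses Irf7 translation, went the other way at 5.63, 5.29 and 5.68 in Sox2cKO and 5.83, 5.58 and 5.53 in control. Oas3 lay between 5.19 and 5.74 on all arrays. Oasl2 was not tested, since only 2 arrays exceeded their 40th percentile: it read 6.87 in Sox2cKO replicate 2 and 5.22 in control replicate 1, while the remaining 4 arrays lay at 4.17 to 4.82.

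Among the sensors of nucleic acid, Ifih1 (MDA5), which detects long double-stranded RNA, read 7.57, 7.82 and 6.91 in Sox2cKO and 7.26, 7.21 and 6.76 in control. Dhx58 (LGP2), its cofactor, read 5.34, 5.96 and 5.25 in Sox2cKO and 5.22, 5.28 and 5.07 in control. In both genes 2 Sox2cKO arrays exceeded all controls, and replicate 3 lay among them. Ddx58 (RIG-I) hardly varied, at 6.99 to 7.28 in Sox2cKO and 7.02 to 7.32 in control. Trim25, the ubiquitin ligase of the RIG-I pathway, read 9.70, 9.64 and 9.55 in Sox2cKO and 9.70, 10.05 and 9.66 in control. Only control replicate 2 stood out there. Zbp1, a sensor of Z-form nucleic acid, was highest in Sox2cKO replicate 2 at 6.26 and lay at 5.42 to 5.88 elsewhere.

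The other antiviral effectors held the one member with all Sox2cKO values below the controls, 1 of the 40 tested and a share near that of all genes. Plscr1, a phospholipid scramblase that interferon induces, read 8.11, 8.0 and 8.24 in Sox2cKO and 8.63, 9.40 and 9.04 in control. The groups did not overlap, which 3.12% of all genes showed in this direction. Plscr1 was 1.87-fold lower (log2 difference -0.90, SE 0.20, limma unadjusted p = 0.00255, adjusted p = 0.999). Its exact two-sided permutation p of 0.1 follows from the separation itself, as for Ifit1. A second probe set gave -0.78 and another, near background, -0.49, and leaving out single arrays gave -1.10 to -0.72. With the sex covariate the difference was -0.51, against -0.90 without it. Sox2cKO replicate 2, the highest array of most members, was the lowest for Plscr1.

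Rtp4, a chaperone of taste and opioid receptors, read 7.0, 8.21 and 5.64 in Sox2cKO and 6.82, 5.95 and 5.86 in control. Here Sox2cKO held both the highest and the lowest array. Xaf1, a pro-apoptotic gene, read 7.61 in Sox2cKO replicate 2 and 5.83 to 6.68 elsewhere. Ifi27l2a spanned 5.15 to 7.64 in Sox2cKO, with replicate 1 highest and replicate 3 lowest, and 5.98 to 7.08 in control. Mx2, a dynamin-like GTPase, read 5.59, 5.62 and 5.66 in Sox2cKO and 5.43, 5.42 and 5.61 in control, near the middle of all signals. Bst2 (tetherin), which holds budding virus at the cell surface, read 6.78 to 7.46 in Sox2cKO and 6.79 to 7.10 in control, and Ifi35 read 9.62 to 10.33 in Sox2cKO and 9.73 to 10.17 in control. Mx1 exceeded the 40th percentile on 0 arrays and was not tested.

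The antigen processing genes, which cut proteins to peptides and move them to MHC class I, were brightly expressed and differed by little. Tap1, a chain of the peptide transporter, read 8.60, 9.31 and 8.76 in Sox2cKO and 8.80, 8.15 and 8.11 in control. Control replicate 1 lay within the Sox2cKO range, and the other controls lay below it (log2 difference 0.54, SE 0.25, adjusted p = 0.999). A second, dimmer probe set of Tap1 gave -0.21. Tap2, its partner, read 8.55, 9.14 and 8.20 in Sox2cKO and 8.76, 8.24 and 8.21 in control. Psmb9, an immunoproteasome subunit gene next to Tap1 on chromosome 17, read 8.83, 9.52 and 8.29 in Sox2cKO and 9.08, 9.27 and 8.73 in control. The mean differences of these neighbours had opposite signs, 0.54 for Tap1 and -0.15 for Psmb9, with overlapping groups in both. Psmb8, the second subunit, read 8.95 to 9.90 in Sox2cKO and 9.11 to 9.77 in control, and Tapbp (tapasin) read 9.57 to 10.12 in Sox2cKO and 9.57 to 10.11 in control. All 5 genes were highest in Sox2cKO replicate 2.

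The GBP and IRG families are large GTPases that interferon gamma induces strongly and that disrupt vacuoles around intracellular pathogens. They spread over the arrays most widely of the 8 role groups. Iigp1 read 6.41, 10.02 and 6.52 in Sox2cKO and 8.82, 5.82 and 6.84 in control. Gbp2 read 7.20, 9.84 and 6.58 in Sox2cKO and 8.53, 7.55 and 7.49 in control. Igtp (Irgm3) read 6.90, 9.44 and 6.64 in Sox2cKO and 7.96, 6.48 and 6.54 in control. In each of these genes the same 2 arrays, Sox2cKO replicate 2 and control replicate 1, stood above the remaining 4.

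In Iigp1 Sox2cKO replicate 2 exceeded the mean of the other Sox2cKO arrays by 11.8-fold, and control replicate 1 exceeded the mean of the other controls by 5.62-fold. The genotype difference in Iigp1 was 0.49 with an SE of 1.10, smaller than either gap within a group. Gbp3 read 5.88, 6.88 and 5.44 in Sox2cKO and 6.59, 4.77 and 4.64 in control, with the same pair of arrays on top. Irgm1 read 6.52 to 8.53 in Sox2cKO and 6.61 to 7.52 in control. Second probe sets of Iigp1 and Gbp2 placed Sox2cKO replicate 2 above its group by 3.68 and 3.02 on the log2 scale, beside 3.56 and 2.95 for the ones used. None of the 5 genes passed (adjusted p = 0.999 to 1.00).

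**Figure D3:**
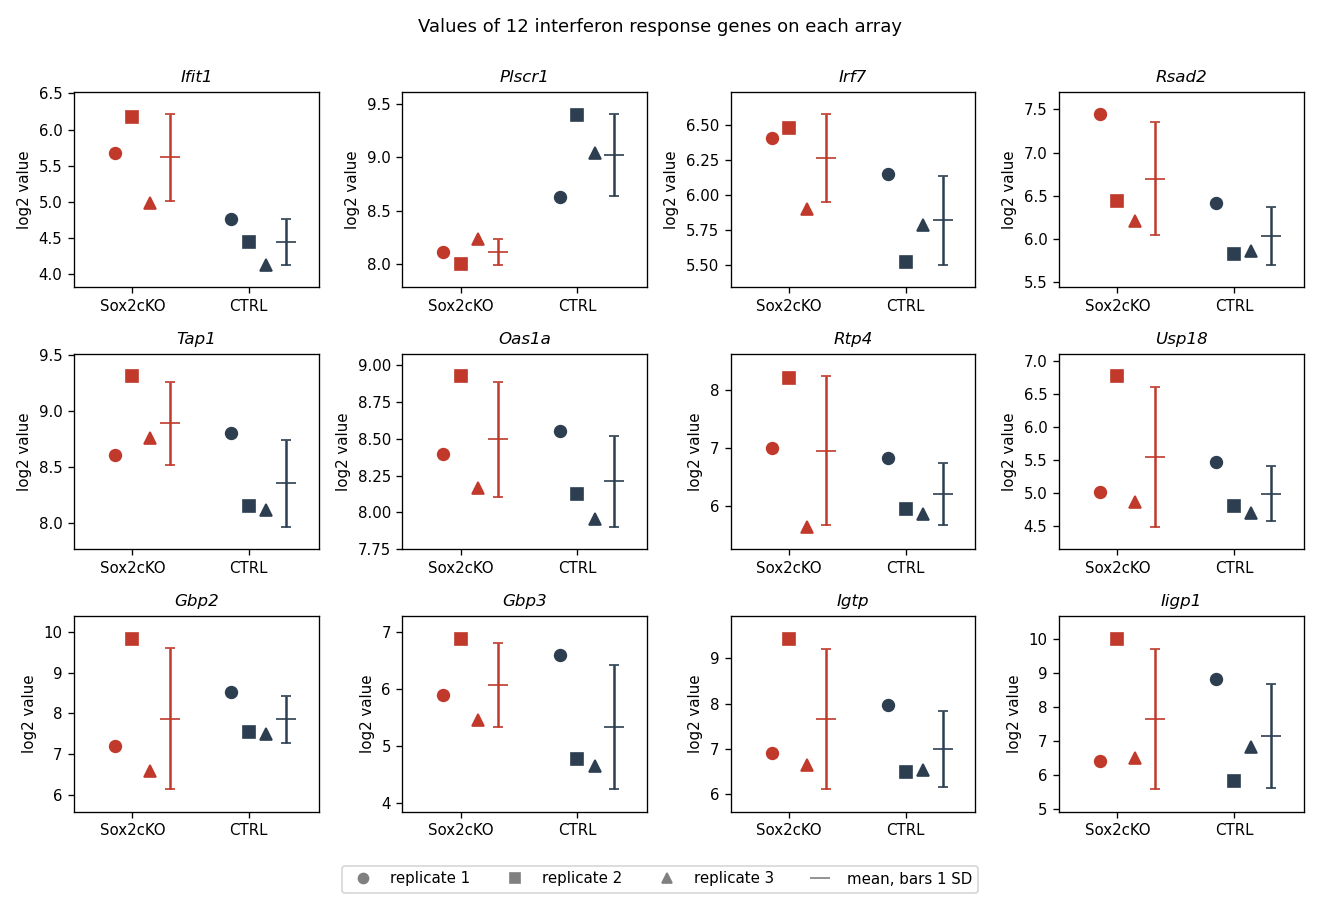
Each panel gives the log2 values of 1 gene on the 3 Sox2cKO arrays (red, left) and the 3 control arrays (dark, right), with symbols for the replicate number and a bar for the mean and 1 SD. Ifit1 and Plscr1 separate by group, while in Gbp2, Gbp3, Igtp and Iigp1 the square of Sox2cKO and the circle of control lie on top.

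The last role group joins Parp9, Dtx3l and Parp14, neighbours on chromosome 16 whose products act on interferon signalling through ADP-ribose and ubiquitin. Parp9 read 7.77, 8.54 and 7.37 in Sox2cKO and 8.22, 8.01 and 7.64 in control. Its ligase partner Dtx3l read 7.24, 8.37 and 7.40 in Sox2cKO and 7.69, 7.45 and 7.37 in control. Parp14 read 7.13, 7.80 and 6.44 in Sox2cKO and 7.34, 7.13 and 6.62 in control. Sox2cKO replicate 2 was again highest in all 3, and the group means differed by -0.07, 0.17 and 0.09.

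The 2 arrays that stood out had 4 genes of the GBP and IRG group in common. Sox2cKO replicate 2 exceeded the mean of the other Sox2cKO arrays by over 1 on the log2 scale in 11 of the 40 members, against 2.23% of all genes. Control replicate 1 exceeded the mean of the other controls by as much in 4 members, Gbp2, Gbp3, Igtp and Iigp1, against 1.37% of all genes, and all 4 were among the 11. Across the 40 members the 2 gaps, which share no array, had a Pearson correlation of 0.70 and a Spearman correlation of 0.52, and across all genes 0.00 and 0.04. These are correlations across genes over 6 arrays of 1 deposited table, and genes are not independent replicates. The 2 arrays were picked after the values of these members were seen, so the correlations describe that choice and do not test it. Within its group Sox2cKO replicate 2 was highest in 32 of the 40 (42.3% of all genes) and control replicate 1 in 26 (33.1% of all genes). At the other end, Sox2cKO replicate 3 was lowest of its group in 32 of the 40 (35.1% of all genes) and control replicate 3 in 27 (37.7% of all genes). The 18S ribosomal RNA control probe sets were highest of each group in the same arrays: the 3' one read 10.20, 10.75 and 11.78 in Sox2cKO and 10.72, 10.51 and 10.97 in control, and its part in the result was not tested.

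**Figure D4:**
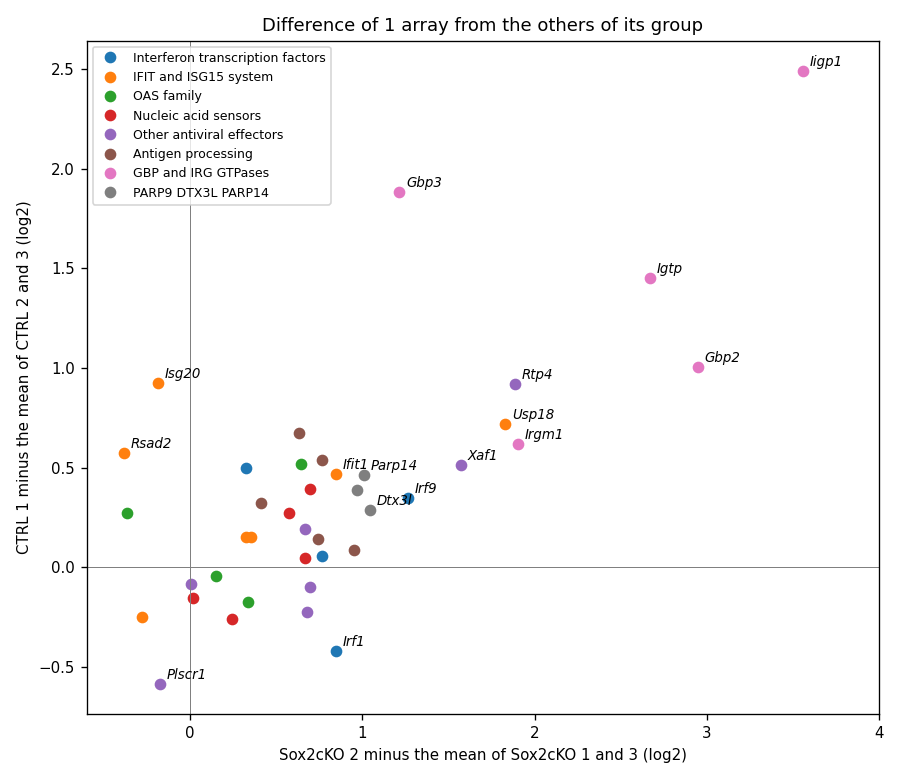
Each point is 1 of the 40 members tested, coloured by role; the horizontal axis is Sox2cKO replicate 2 minus the mean of the other 2 Sox2cKO arrays, the vertical axis control replicate 1 minus the mean of the other 2 controls, both in log2. Iigp1, at 3.56 and 2.49, lies farthest out on both axes, and Gbp2, Gbp3 and Igtp are the other genes above 1 on both.

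Arrays of the same replicate number deviated together over all genes, so pairs of the same number were also compared. In pair 1, 17 of the 40 members read higher in Sox2cKO (44.5% of all genes), with a median of -0.18. In pair 2 there were 35 (52.3% of all genes), with a median of 0.61. In pair 3 there were 16 (51.4% of all genes), with a median of -0.01. The members thus lay higher in Sox2cKO in 1 pair of 3. Pair 1 is the only pair of one sex pattern, and its GTPase genes read lower in Sox2cKO, with a median of -1.06, against 2.28 in pair 2 and -0.10 in pair 3. Plscr1 read lower in Sox2cKO in every pair, with differences of -0.52, -1.40 and -0.80.

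**Figure D5:**
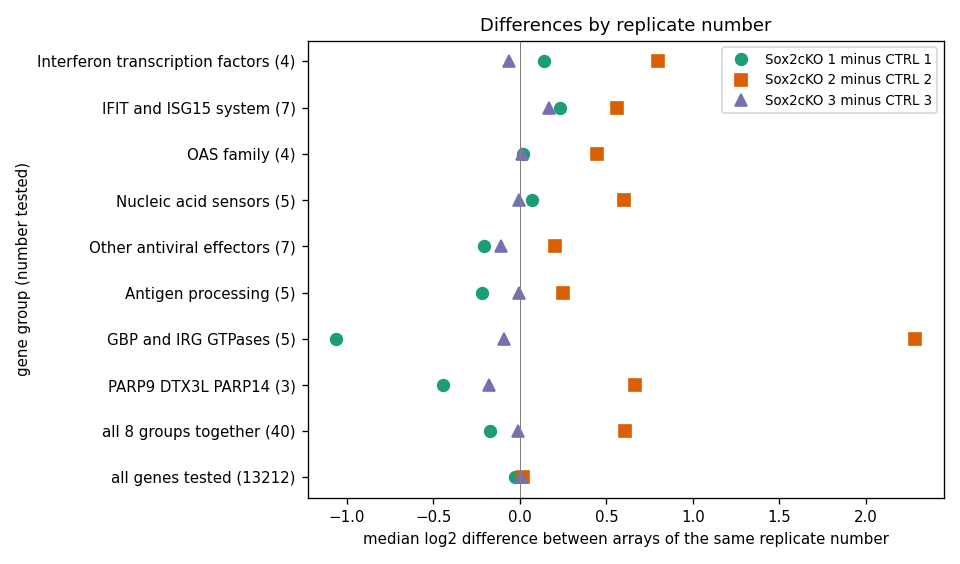
Each row is a role group with its number of tested genes, all 8 groups together, or all genes tested; the symbols give the median log2 difference between Sox2cKO and control arrays of the same replicate number. Pair 2 lies right of 0 in every role group, and in the GBP and IRG group the medians run between -1.06 and 2.28.

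Leukocytes also express interferon response genes, and the sort excluded cells with CD45, a leukocyte marker. In bulk samples fewer cells of a type and less RNA per cell cannot be told apart. Of 6 markers of leukocytes in general, 4 were highest in Sox2cKO replicate 2, where 25.3% of all genes tested were. Lcp1, among those 4, did not pass the filter. Laptm5, the brightest of the 6, was lowest in Sox2cKO replicate 2, at 6.96 against 7.19 to 7.36 elsewhere. Coro1a was highest in Sox2cKO replicate 3. The summed signal of the 6 on the linear scale was 324 to 355 in Sox2cKO and 314 to 330 in control. The highest sum was in Sox2cKO replicate 2. Ptprc (CD45) read 5.21, 5.51 and 4.58 in Sox2cKO and 5.14, 4.69 and 5.15 in control. Macrophage markers summed to 764, 1034 and 1194 in Sox2cKO and 764, 859 and 874 in control. Of the 12, 4 were highest in Sox2cKO replicate 2 (25.3% of all genes tested): Lyz2, C1qa, C1qb and C1qc, of which C1qc did not pass the filter. Cd14, Cd68 and the sum itself were highest in Sox2cKO replicate 3. Markers of T and NK cells summed to 369.5 to 415 in Sox2cKO and 376 to 404 in control, were lowest in Sox2cKO replicate 2, and only 5 of the 11 passed the filter. Fibroblast markers summed to 3930, 6767 and 14900 in Sox2cKO and 4053, 3957 and 1723 in control. All 9 had a higher mean in Sox2cKO, and their sum was highest in replicate 3, the array with the lowest interferon values of that group. Melanocyte markers had sums of 560, 892 and 336 in Sox2cKO and 546, 569 and 440.5 in control. Of these 7 markers 5 were highest in Sox2cKO replicate 2 (25.3% of all genes tested), and the sums were lowest in replicate 3 of each group. Markers of Langerhans and dendritic cells summed to 880, 1406 and 773 in Sox2cKO and 2364, 1477 and 2013 in control. Among them the MHC class II genes, which interferon gamma also induces, had lower means in Sox2cKO, with log2 differences of -1.38 for H2-Aa and -1.09 for Cd74. The markers outside these class II genes were dimmer and differed by less: Cd207 by 0.014, Flt3 by 0.12, Zbtb46 by -0.080 and Siglech by 0.023. Itgax, Ciita and Cd209a did not pass the filter and differed by -0.038, -0.0079 and -0.12. Neutrophil markers, of which S100a8 and S100a9 were brightest, summed to 9904, 16220 and 13690 in Sox2cKO and 15630, 18970 and 11560 in control. B cell markers summed to 174.5 to 223 in Sox2cKO and 186 to 197 in control. For dendritic epidermal T cells the sums were 84 to 90 and 82 to 94, and for endothelial cells 349 to 378 and 312 to 390.5. The part of all these markers, and of sex, in the results was not tested.

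The rest of the pathway was read from lists of its other genes. Of 8 ligand genes with a probe set 2 passed the filter. Ifnz, a type I interferon gene, read 5.76 to 6.10 in Sox2cKO and 5.86 to 6.13 in control, and Ifna1 read 5.08 to 5.61 in Sox2cKO and 5.17 to 5.52 in control, with overlapping groups in both. The other 6 were dim: Ifng read 3.68 to 3.89 in Sox2cKO and 3.71 to 3.89 in control, and Ifnb1 read 4.69 to 4.76 in Sox2cKO and 4.47 to 4.75 in control. The receptors were expressed: Ifngr1 read 8.65 to 9.22 in Sox2cKO and 8.68 to 9.56 in control, and 1 of the 6 receptor genes was higher in Sox2cKO on average and 5 lower (median -0.16). Of 9 further JAK, STAT and IRF genes tested 8 were higher on average (median 0.14), and of 10 adaptors and kinases of sensing 7 (median 0.09), with Mavs, the mitochondrial adaptor of the RNA sensors, at 0.38 and Cgas, the DNA sensor, at -0.28. Of 8 feedback inhibitors 5 were higher (median 0.05). In all 7 lists 0 genes passed the threshold in either direction.

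MHC class I and its loading machinery followed the arrays. Of 12 genes tested 9 were highest in Sox2cKO replicate 2 (25.3% of all genes) and 8 lowest in Sox2cKO replicate 3 (19.2%). Their median genotype difference was 0.04. Nlrc5, the activator of class I transcription, read 8.30, 8.97 and 7.65 in Sox2cKO and 8.35, 8.40 and 8.17 in control. Its means were equal in both groups, and Sox2cKO held its highest and lowest arrays. H2-D1, a class I heavy chain gene, was at 12.72 to 13.16 in Sox2cKO and 12.57 to 12.96 in control, with no clear order.

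Among 48 further interferon-stimulated genes tested, 33 read higher in Sox2cKO (median 0.06), where 50.6% of all genes did. Sox2cKO replicate 2 was highest in 20 of them, against 25.3% of all genes. The 3 genes of smallest unadjusted p had lower means in Sox2cKO. Apobec3, a deaminase that restricts retroviruses, read 5.62, 5.82 and 6.22 in Sox2cKO and 6.39, 6.49 and 6.46 in control (log2 difference -0.56, unadjusted p = 0.0124, adjusted p = 0.999). Ifitm3, a membrane protein that blocks virus entry, read 12.20, 12.28 and 12.22 in Sox2cKO and 12.44, 12.88 and 12.49 in control, and Ifitm2 read 10.53, 10.76 and 10.45 in Sox2cKO and 10.91, 11.48 and 10.77 in control. In all 3 every Sox2cKO array lay below every control, as did 3.12% of all genes, and they are the genes of smallest p in the list. In the other direction 2 tested genes of the further lists had groups apart, as did 2.72% of all genes tested. The ligand gene Ifna2, which did not pass the filter, was also apart in this direction. Calr, a chaperone of class I loading, read 12.07, 12.12 and 12 in Sox2cKO and 11.88, 11.96 and 11.85 in control, and Adar, an editor of double-stranded RNA, read 7.77 to 7.92 in Sox2cKO and 7.66 to 7.74 in control.

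Other genes of that list repeated the pattern of the GTPase members, and they are named after their values were seen. The chemokine gene Cxcl9, which interferon gamma induces, read 8.36, 11.15 and 8.22 in Sox2cKO and 10.30, 7.25 and 8.26 in control. Ifi47 read 6.27, 8.51 and 5.97 in Sox2cKO and 7.78, 5.96 and 6.42 in control. Gbp6 read 5.42, 7.80 and 4.35 in Sox2cKO and 6.65, 4.83 and 5.16 in control. In each the 2 highest arrays were Sox2cKO replicate 2 and control replicate 1. Of the 48 genes, 9 exceeded their group by over 1 in Sox2cKO replicate 2 (2.23% of all genes) and 9 in control replicate 1 (1.37%). In both arrays 6 did, against 32 of all 13212 genes tested.

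Promoter letters were set beside the values as a description. The 13 tested members with an ISRE match had a median genotype difference of 0.29 and a median gap of Sox2cKO replicate 2 over its group of 0.67. The 16 without one had -0.02 and 0.52. The 9 with a GAS match had 0.04 and 0.67, against 0.18 and 0.60 for the 20 without one. The GTPase genes Gbp2, Gbp3, Igtp and Irgm1 hold an ISRE match, and Igtp also a GAS match. They were shown above because they hold one, and Iigp1, the other GTPase member, was not in the promoter table. Other members in that table held neither match, among them Irf7, Tap1, Psmb9 and Oasl2. Plscr1 and Irf1, with a GAS match alone, had mean differences of -0.90 and -0.07.

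Further probe sets of the members were compared with the ones used. Of 16 other probe sets bright enough for the filter, in 14 genes, 12 had the sign of the one used and 4 the opposite sign. The 4 belonged to Gbp2, Ifi35 and Tapbp, whose differences were within 0.13 of 0 on both probe sets, and to Tap1, where the other probe set lay near the filter. The array order was less alike: Sox2cKO replicate 2 was highest of its group on 9 of the 16 and not on 7. Of those 7, the ones of Ddx58, Parp14 and Tapbp differ in this from the probe set used. The second Parp14 probe set read 5.32, 5.17 and 5.21 in Sox2cKO and 5.20, 5.36 and 5.14 in control. On a Trim25 probe set Sox2cKO replicate 2 differed from the mean of the other Sox2cKO arrays by -0.88.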

How the data were processed

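The authors' deposited table holds log2 values, a scale judged from their range, with 1 value per probe set and array of the Affymetrix Mouse Genome 430 2.0 array. R 2.14.0 is named in the submitters' processing notes. How background was corrected and probes were summarised and normalized is not given in the sources used here. Array medians lay between 5.42 and 5.46, so a shift shared by most genes would not be seen. Of 45101 probe sets, 64 were Affymetrix controls, and 34945 had 1 gene symbol in the platform annotation. A gene was tested where at least 3 of 6 arrays exceeded that array's 40th percentile. The comparison of 3 Sox2cKO with 3 control arrays used limma 3.58.1 in R 4.3.3, two-sided, with Benjamini-Hochberg adjustment over 13212 genes and a threshold of 0.05. The procedure was run on simulated data with independent noise and differences larger than that of any member. That run does not show how well differences as small as those of the members are found. Differences are Sox2cKO minus control.

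Members and lists were chosen with earlier results of these data known. Every member is accounted for by role. Values of all arrays are given for the 3 members of smallest unadjusted p in each role, those whose groups do not overlap and the 3 of widest range. Up to 3 genes of smallest p are named per further list, and any others after their values were seen. Same-numbered arrays correlated in their deviations from group means at 0.206 to 0.288, each over 0.1. They were therefore also compared as pairs and fitted with the replicate number as a block. The main fit and the exact permutation tests took no account of the pairs. The number of arrays limits the precision.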

Additional observations from a re-analysis of the deposited data

How the results depend on the processing

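In every fit run 0 members passed the threshold, and the members' median difference of 0.18 kept its sign in all but 2. With the replicate block it was 0.18, with no filter 0.18, with the 60th percentile filter 0.16, with quantile normalization 0.16, with 16 added on the linear scale 0.16, with the mean of probe sets 0.16 and with limma's trend and robust options 0.18. Leaving out single arrays gave medians between -0.053 and 0.42, and with the sex covariate it was -0.0048. Over all genes, between 0 and 5 passed with single arrays left out (5 without control replicate 1), 1 with the sex covariate, and 5 without Sox2cKO replicate 2 and control replicate 1, an alternative chosen after seeing the data. Signs of single genes were followed here only in the members chosen by rule for values of all arrays, unless said otherwise. With the sex covariate signs turned in Oas1a (-0.058), Tap2 (-0.14), Gbp2 (-0.65), Gbp3 (-0.52), Igtp (-0.30), Iigp1 (-1.17), Dtx3l (-0.024) and Parp14 (-0.22). With the mean of probe sets Gbp2 was at -0.039. Without Sox2cKO replicate 2 and control replicate 1, Irf9 (-0.017), Oasl1 (0.10), Gbp2 (-0.63), Dtx3l (-0.087) and Parp14 (-0.090) turned. Outside the members chosen by rule, Ifi27l2a (-0.14), Bst2 (-0.11), Xaf1 (-0.12) and Irgm1 (-0.28) turned in that fit too. Leaving out single arrays gave ranges that cross 0 for Irf9 (-0.13 to 0.69), Oasl1 (-0.19 to 0.010), Tap2 (-0.031 to 0.44), Psmb9 (-0.46 to 0.15), Gbp2 (-0.97 to 0.66), Igtp (-0.22 to 1.18), Iigp1 (-0.70 to 1.32), Parp9 (-0.39 to 0.20), Dtx3l (-0.18 to 0.38) and Parp14 (-0.24 to 0.43). The cause was not tested. Dim genes such as Ifit1 and Oasl2 are limited by signal over background.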
